A study of Schizosaccharomyces pombe with 3 samples.

Results

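The genes described here encode proteins of the large (60S) subunit of the cytoplasmic ribosome of the fission yeast *Schizosaccharomyces pombe*. They are a fixed list of 60 identifiers, including the acidic proteins of the stalk, and all 60 were found among the 7049 rows of the deposited count table. Total RNA depleted of ribosomal RNA was sequenced from 1 WT library and from 2 slow libraries, slow #1 and slow #2, which carry *rpb1-N494D*, a point mutation in the largest RNAPII subunit (RNA polymerase II). The study asked how slower elongation by RNAPII acts on gene expression. All 3 strains are h- and share the alleles *ade6-M216* and *leu1-32*, *ura4-D18* and *his3-D1*, as well as *fex1* delta and *fex2* delta. They were grown to mid-log phase in EMM, a minimal medium, with adenine, histidine, leucine and uracil. The slow libraries come from independent clones made by CRISPR/Cas9 at the endogenous locus. There is only 1 WT library, so its spread cannot be measured: p-values rest on the spread between the slow clones and assume the same for WT.

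The libraries held 30674459 to 40746838 counts. The members took 4.73% of them in WT, 3.78% in slow #1 and 3.39% in slow #2, so that both slow libraries were below WT. Features of structural RNAs and mitochondrial genes moved the other way, with 3.86%, 6.40% and 6.63%. With these features left out of the fit, the median log2 fold change of the members was −0.29, against −0.30 with them. Beyond such a refit, their part in the results was not tested. The N494D change cannot be checked from counts per gene. Of the genes that the labels give as altered in all 3 strains, *ura4* had 0 counts in each library, whereas *his3* had 511 to 590, *fex1* 244 to 549 and *fex2* 566 to 714. In bulk RNA of a culture, less RNA in each cell and fewer cells with the RNA cannot be told apart.

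The large subunit forms peptide bonds, holds the tunnel through which the new chain leaves, and carries 2 flexible stalks, the L1 stalk and the P stalk. In fission yeast, most of its proteins are encoded by 2 or more gene copies, called paralogs, whose products are nearly identical. Their promoters often hold a HomolD box, which takes the place of a TATA box, and at times a HomolE box. Ribosomal protein genes are among the most strongly transcribed genes of growing cells, and they are lowered together when growth slows.

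Of the list, 59 genes encode ribosomal proteins by the RefSeq annotation. SPAC664.06 is annotated as *rlp7*, a ribosome biogenesis protein and not a part of the mature subunit. Without it the median log2 fold change of the list was −0.28 in place of −0.30. The product of *rpl701* is annotated as an L7-like protein and as a subunit of RNase MRP, and its paralog *rpl702* is not in the list. Every member was well counted, with 991 to 188381 counts in a library, and all 60 passed the filter on low counts. Levels between genes are compared as CPM (library-scaled counts) per kilobase of summed exons, or CPM per kb. In WT, all 60 members were above the median of protein-coding genes (50.4 CPM per kb), and 33 were above their 95th percentile (350).

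The sequences below are shown because they belong to paralogs with large changes or a changed balance. They are read from the RefSeq assembly ASM294v3, whose annotation ends all 60 members at the same 3′ base as the deposited table. The first set holds the introns of 4 genes from the families L27 and L16, with the first 6 and the last 3 bases in capitals. *rpl2701* holds the shortest intron of all members, 44 bases at chrII:2780583-2780626 on the minus strand, and that of its paralog *rpl2702* is 69 bases at chrIII:1939292-1939360 on the plus strand. The introns of *rpl1601* (46 bases, chrII:623953-623998, minus strand) and *rpl1602* (55 bases, chrI:4097375-4097429, plus strand) are short in both copies.
rpl2701 intron: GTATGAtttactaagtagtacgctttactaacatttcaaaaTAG
rpl2702 intron: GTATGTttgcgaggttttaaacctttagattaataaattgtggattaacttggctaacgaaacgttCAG
rpl1601 intron: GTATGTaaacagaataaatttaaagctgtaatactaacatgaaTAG
rpl1602 intron: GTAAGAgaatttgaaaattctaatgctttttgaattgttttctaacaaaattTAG

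The second set holds the 150 bases before the RefSeq start of 2 pairs of paralogs whose balance differed between WT and slow. Capitals mark the HomolD box CAGTCACA, or its first 7 letters CAGTCAC, and the HomolE core CCCTACCC, on either strand, so that the 7 letters on the other strand appear as GTGACTG. The stretches are chrII:2780665-2780814 (minus strand) for *rpl2701*, chrIII:1939087-1939236 (plus) for *rpl2702*, chrII:1726515-1726664 (plus) for *rpl802* and chrII:601102-601251 (plus) for *rpl803*.
rpl2701: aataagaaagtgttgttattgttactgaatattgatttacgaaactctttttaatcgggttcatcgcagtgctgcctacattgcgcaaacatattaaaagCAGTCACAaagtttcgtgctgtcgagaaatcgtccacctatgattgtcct
rpl2702: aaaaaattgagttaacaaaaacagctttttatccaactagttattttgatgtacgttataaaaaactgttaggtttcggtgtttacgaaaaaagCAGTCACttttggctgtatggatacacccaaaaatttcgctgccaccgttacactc
rpl802: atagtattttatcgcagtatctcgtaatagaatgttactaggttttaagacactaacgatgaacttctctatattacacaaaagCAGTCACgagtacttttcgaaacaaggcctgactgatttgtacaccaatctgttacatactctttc
rpl803: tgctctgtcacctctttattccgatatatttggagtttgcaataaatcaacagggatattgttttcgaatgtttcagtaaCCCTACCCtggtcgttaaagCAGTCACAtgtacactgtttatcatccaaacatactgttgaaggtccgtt

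In both of these pairs, only 1 copy holds the full 8 letters of HomolD. *rpl2701* has the box starting at base −50 (the base before the start is −1), and *rpl2702* has the first 7 letters at −56. *rpl803* has both boxes, at −50 and −70, and *rpl802* has the 7 letters at −66. The copy with the full box was the lower of its pair in slow relative to WT for L27, and the higher for *rpl803* against *rpl802*. Of all 26 pairs of paralogs in the list, 12 had the full box in 1 copy alone, and that copy had the lower fold change in 8 and the higher in 4. Among the pairs whose balance moved by over 0.5 (log2) in both clones there were 5 of this kind, with 4 lower and 1 higher. This was counted after the values were seen and was not tested. Families with 3 copies give overlapping pairs, so *rpl802* and *rpp101* each enter the 12 pairs repeatedly and these are not independent. The deposited table starts 55 of the 60 genes upstream of the RefSeq start, by a median of 46 bases over all members and by 114 bases for *rpl2701*, so that part of these stretches lies within its rows, as does the HomolD box of 14 members.

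Over all 60 promoters, taken as 250 bases before to 50 after the RefSeq start, 42 (70%) held CAGTCACA on either strand, against 2.69% of the promoters of all 5103 protein-coding genes looked at. The HomolE core was in 21 (35%) against 1.59%, both boxes were in 15, and neither was in 12. On the coding strand alone the shares were 51.7% and 18.3%. With the first 7 letters of HomolD, a search chosen after the promoters above had been seen, 56 members (93.3%) matched, against 4.72% of all protein-coding genes. The shares over all protein-coding genes include the ribosomal protein genes. Outside these, either-strand shares were 0.967% for HomolD, 0.64% for HomolE and 2.3% for the 7 letters. Of the 24 other 60S genes 54.2% held the full HomolD box, and of the 55 genes of the small (40S) subunit 61.8%. A full HomolD box started within 100 bases upstream in 41 of the 42 members, the match nearest to the start lay at a median of −50.5, and HomolE at a median of −69, between −85 and −60. The HomolD box of *rpl35* lies in the 203 bases between its start and that of the divergent *rpl902*, shown here because it lies between a pair of member genes with unlike values (chrIII:89577-89779, plus strand, *rpl35* to the left and *rpl902* to the right, same capitals).
rpl35 to rpl902: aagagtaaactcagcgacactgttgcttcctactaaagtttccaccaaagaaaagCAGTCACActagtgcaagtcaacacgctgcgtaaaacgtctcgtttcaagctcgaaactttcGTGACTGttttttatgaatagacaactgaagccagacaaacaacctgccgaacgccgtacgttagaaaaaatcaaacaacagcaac

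Seen from *rpl35* the full box starts at −63 and the 7-letter run on its own strand at −124, and seen from *rpl902* the same letters lie at −148 and −86. Relative to WT, *rpl35* had log2 differences of −0.61 and −1.36 in the clones and *rpl902* of −0.28 and −0.50. The median log2 fold change was −0.34 for members with the full HomolD box and −0.25 for those without, and −0.28 and −0.32 with and without HomolE. A match is a description of letters and was not tested as a site.

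Most of the listed members were lower in slow than in WT. Of the 60 members, 39 were lower than WT in both clones, 9 were higher in both and 12 differed in direction between the clones. Over all 6418 genes tested, 42.6% were lower and 42.7% higher in both, and over protein-coding genes 47.0% and 39.0%. The median log2 fold change of the members was −0.30, with −0.30 in slow #1 and −0.34 in slow #2 when each clone was set against WT, beside 0.010 over all genes tested and −0.03 over protein-coding genes. The quartiles of the members were −0.51 and 0.02. Both clones share the WT library, so their values are not independent.

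By edgeR's quasi-likelihood test, at an FDR below 0.01 with more than a 1.5-fold difference, 1 member fell (*rpl2701*) and 0 rose, against 0.39% of all genes called down and 0.312% called up. Before adjustment, 26 members were lower and 4 higher with p below 0.05, against 17.9% and 17.5% of all genes. With the FDR threshold at 0.05, 10 were called down and 1 up, against 5.59% and 6.79%. DESeq2, run as an alternative on the same counts, called 12 members down and 1 up (*rpl2002*), against 3.56% and 4.84% of the genes it tested. The edgeR fit has 1 residual degree of freedom, and over the whole table it called 20 genes up and 25 down.

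**Figure D1:**
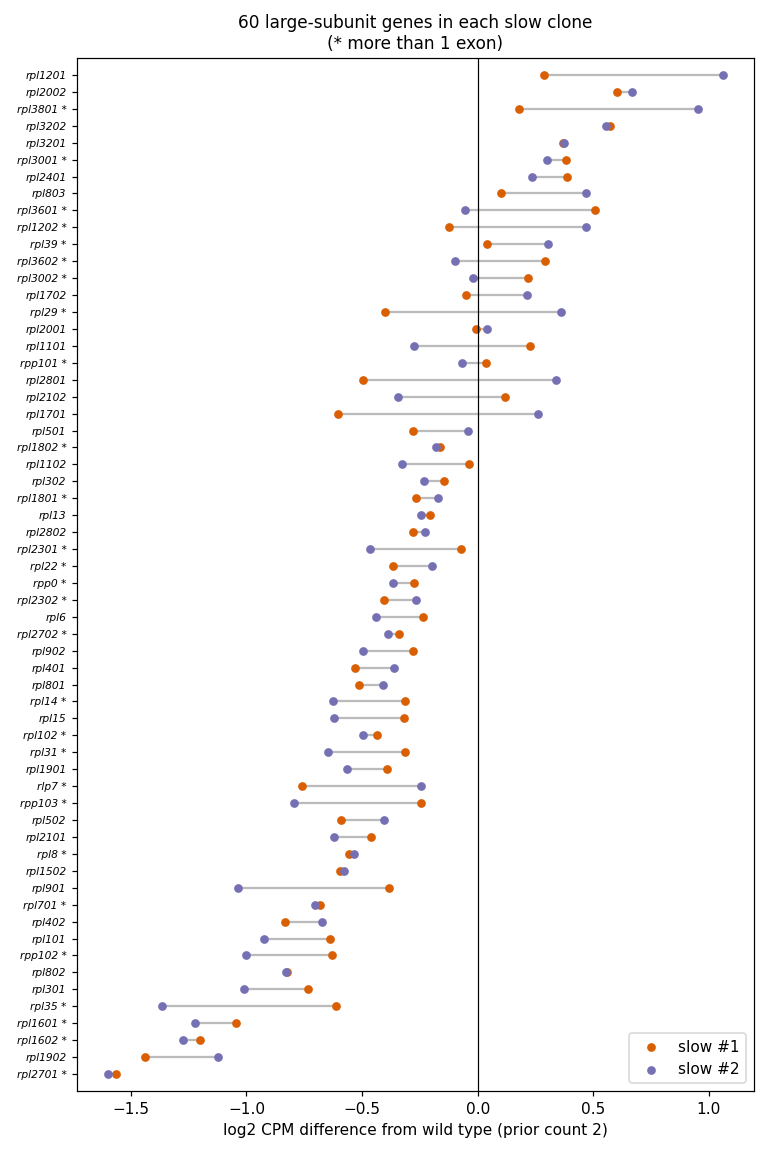
Difference of log2 CPM from WT for each of the 60 members (vertical axis, ordered by fold change) in slow #1 (orange) and slow #2 (purple), with a grey line joining the clones. An asterisk marks genes with more than 1 exon. In 39 genes both points lie left of 0 and in 9 both lie right of it, with *rpl2701* lowest.

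*rpl2701* (SPBC685.07c, chrII:2780053-2780778 in ASM294v2, minus strand, 2 exons) encodes eL27, and was the member with the largest change. It had 6541 counts in WT, 2858 in slow #1 and 2023 in slow #2, which came to 204, 69.0 and 67.4 CPM. Both slow libraries were about as far below WT as each other. Its log2 fold change was −1.58 ± 0.11 (SE) with an adjusted p of 0.00441 by edgeR, and −1.57 and −1.60 in the clones (DESeq2 adjusted p 1.21e-14). With RLE size factors the fold change was −1.58 and the edgeR call was lost (adjusted p = 0.0128), as were all other calls of the table. Its paralog *rpl2702* (SPCC74.05, chrIII:1939218-1939907, plus strand, 2 exons) had 5850, 5981 and 4189 counts, or 183, 144 and 140 CPM. *rpl2702* was also below WT in both clones, but by less: −0.36 ± 0.12, which did not pass the edgeR test (adjusted p = 0.0773).

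The copies of L27 could be compared within each library, where the scaling of the libraries drops out. *rpl2701* held 52.8% of the counts of the pair in WT (95% interval 51.9 to 53.7, exact binomial, counting error only), 32.3% in slow #1 (31.4 to 33.3) and 32.6% in slow #2 (31.4 to 33.7). The pair was nearly even in WT, and *rpl2702* led in both slow clones. The log2 ratio of the copies differed from that in WT by −1.23 in slow #1 and −1.21 in slow #2. Their coding sequences are 83.5% identical, and neither shares a window of 100 bases with another coding transcript. Summed over both copies, L27 mRNA was 387 CPM in WT, 213 in slow #1 and 207 in slow #2, a log2 change of −0.88 ± 0.03 (SD of the clones, n = 2).

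**Figure D2:**
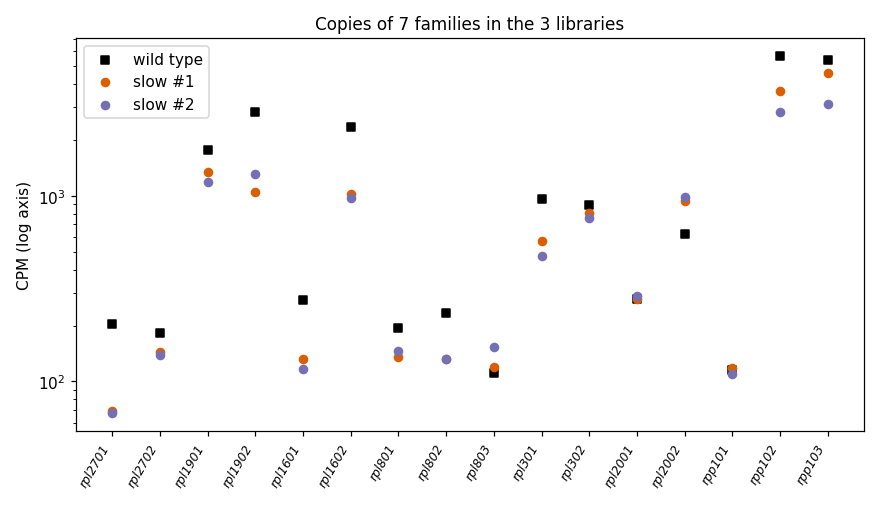
CPM (vertical log axis) of the 16 copies of 7 families in WT (black squares), slow #1 (orange) and slow #2 (purple). *rpl2701*, *rpl1902* and *rpl1602* have both slow points far below the WT square, while both slow points of *rpl2002* lie above it.

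Groups by place in the subunit hold listed genes only, and the 24 other 60S genes, described further below, had a median log2 fold change of 0.26. The listed genes for proteins of the exit tunnel and its mouth had a median log2 fold change of −0.46 over 10 members. Of these 7 were lower in both clones and 1 was higher in both, with 0 called by edgeR and 3 called down by DESeq2. *rpl1902* encodes eL19, and its 90734 counts in WT came down to 43332 and 39064 in the clones. In CPM these were 2836, 1047 and 1302, so that both slow libraries lay below WT. The log2 fold change was −1.27 ± 0.21 (edgeR adjusted p = 0.0186, DESeq2 5.84e-09). *rpl1901*, the other eL19 gene, had 1754, 1336 and 1184 CPM and a log2 fold change of −0.48 ± 0.18 (edgeR adjusted p = 0.123). *rpl1901* held 38.2% of the pair in WT, 56.1% in slow #1 and 47.6% in slow #2. The minor copy in WT was thus the major one in slow #1 and close to even in slow #2, and the clones differed from each other as well (changes of the log2 ratio of 1.04 and 0.56).

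Also at the tunnel's mouth, *rpl35* encodes uL29 and has a single gene. It had 1206 CPM in WT, 788 in slow #1 and 468 in slow #2, with a log2 fold change of −0.94 ± 0.29 (edgeR adjusted p = 0.0748, DESeq2 0.00364). The clones were both below WT but far apart. The span of *rpl35* from first to last base, introns included, overlaps that of the noncoding SPNCRNA.1103 on the same strand by 66 bases. *rpl402*, a gene of uL4, whose loop reaches into the tunnel, had 701, 393 and 439 CPM (−0.75 ± 0.14, edgeR adjusted p = 0.0260, DESeq2 6.65e-04), and its paralog *rpl401* moved less (−0.44). *rpl39* encodes a small protein inside the tunnel. By the 531 bases of exon in the deposited table, it had the lowest level per length of all members in WT. Its RefSeq transcript is shorter, and the rank by that length was not computed. *rpl39* had 1297 counts in WT, 1723 in slow #1 and 1501 in slow #2. The log2 differences were 0.04 and 0.30 (fitted 0.18 ± 0.16, edgeR adjusted p = 0.465).

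The families of the catalytic center, uL2 and uL3, had a median of −0.46 over 5 members, 4 of which were lower in both clones. uL2 is encoded by *rpl801*, *rpl802* and *rpl803*, whose coding sequences are 90.8% to 93.0% identical. *rpl802* had 234, 132 and 132 CPM (−0.83 ± 0.11, edgeR adjusted p = 0.0128, DESeq2 1.60e-04) and *rpl801* had 194, 136 and 146 (−0.46 ± 0.12, edgeR adjusted p = 0.0498). *rpl803* had 111, 119 and 154 CPM and was above WT in both clones (0.30 ± 0.17, edgeR adjusted p = 0.268). Of the counts of *rpl802* and *rpl803*, the first held 67.8% in WT, 52.5% in slow #1 and 46.1% in slow #2. The 3 copies spread over 194 to 234 and 111 CPM in WT and came to lie between 119 and 154 in the slow clones. Summed, uL2 mRNA was 539, 387 and 432 CPM.

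*rpl301*, a gene of uL3, had 954, 574 and 473 CPM (−0.87 ± 0.17, edgeR adjusted p = 0.0270), and *rpl302* had 892, 806 and 761 (−0.19 ± 0.16, edgeR adjusted p = 0.428). *rpl301* went from 51.7% of the pair to 41.6% and 38.3%. These copies are 96.3% identical in coding sequence, and 65.3% and 54.5% of the 100-base windows of their transcripts occur in another coding transcript, so their counts are uncertain one by one.

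The L16 pair encodes uL13, and its copies moved alike. *rpl1602*, the major copy, had 2357 CPM in WT, 1024 in slow #1 and 974 in slow #2, and *rpl1601* had 274, 133 and 117. In both genes both clones were far below WT. The log2 fold changes were −1.24 ± 0.17 and −1.13 ± 0.13 (edgeR adjusted p = 0.0135 and 0.0103, DESeq2 1.48e-10 and 1.70e-07), just outside the FDR of 0.01. The share of *rpl1601* was 10.4%, 11.5% and 10.8%. A further gene of the family, *rpl1603*, is outside the list.

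The P stalk recruits translation factors to the ribosome, and is built on rpp0 (uL10) with uL11 at its base and the acidic proteins P1 and P2. The P1 genes *rpp102* and *rpp103* had the highest levels per length of all members, 12030 and 10746 CPM per kb in WT, and made up 23.5% of all member counts there. *rpp102* had 5666, 3665 and 2832 CPM (−0.80 ± 0.24, edgeR adjusted p = 0.0697, DESeq2 0.00118), and *rpp103* had 5395, 4550 and 3112 (−0.49 ± 0.28, edgeR adjusted p = 0.258). In both genes slow #2 was lower than slow #1 and both were below WT. The third P1 gene, *rpp101*, was far lower in level and did not pass the test, with 116, 119 and 110 CPM, and its share of the *rpp101* and *rpp102* counts went from 2.00% to 3.14% and 3.75%. *rpp0* had 361, 298 and 281 CPM (−0.32 ± 0.13, edgeR adjusted p = 0.135), but its row starts 1091 bases upstream of the RefSeq start.

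uL11 at the stalk base is encoded by *rpl1201* and *rpl1202*. *rpl1201* had the highest fold change of all members, with 1315 CPM in WT, 1604 in slow #1 and 2741 in slow #2. Both clones were above WT, and slow #2 far more than slow #1. The log2 fold change of 0.72 ± 0.34 passed no test (edgeR adjusted p = 0.177, DESeq2 0.530). The copies are 99.6% identical in coding sequence, and 84.1% and 68.0% of the 100-base windows of their transcripts occur in another coding transcript. Their counts are therefore uncertain one by one. Summed they were 1876, 2120 and 3517 CPM, a sum that may also miss reads. The P2 proteins pair with P1 in the stalk, and their genes are outside the list and were named after their values were seen. *rpp202* rose by DESeq2 alone (log2 fold change 0.89 in edgeR, adjusted p = 0.0302), and *rpp201* and *rpp203* had 0.52 and −0.37.

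In the L1 stalk, which guides the used tRNA out, *rpl101* had 160, 103 and 84.4 CPM (−0.78 ± 0.15, edgeR adjusted p = 0.0250, DESeq2 0.00240). *rpl102* had log2 differences of −0.44 and −0.50 in the clones. The genes of uL5 and uL18, which bind the 5S rRNA, had a median of −0.17 over 4 members, and 0 of them was called by edgeR or DESeq2.

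Elsewhere in the subunit, 33 members had a median of −0.25. *rpl701* had 1696, 1058 and 1043 CPM (−0.69 ± 0.17, edgeR adjusted p = 0.0439), and hosts the snoRNA SPSNORNA.24. From first to last base, introns included, the spans of *rpl701* and the snoRNA overlap by 78 bases, so the counted exons may overlap less. *rpl1502*, the major gene of eL15, had 662, 438 and 443 (−0.59 ± 0.13, edgeR adjusted p = 0.0378). Both fell by DESeq2 (adjusted p 0.00114 and 0.00877) and had slow libraries close to each other. *rpl2101* and *rpl2102*, which encode eL21, had among the lowest levels per length in WT, and were at 50.8, 36.9 and 33.0 CPM (−0.54) and at 75.9, 82.3 and 59.8 (−0.09).

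A few genes were higher in slow. *rpl2002* encodes eL20 and had 619 CPM in WT, 940 in slow #1 and 984 in slow #2, with both clones well above WT. Its log2 fold change was 0.64 ± 0.16 (edgeR adjusted p = 0.0481, DESeq2 0.00411), and its span overlaps that of SPAC26A3.02 by 37 bases on the same strand. Its paralog *rpl2001* had 279, 278 and 287 CPM (0.02 ± 0.13), so that its share of the pair came down from 31.1% to 22.8% and 22.6%. *rpl3202*, a gene of eL32, had 798, 1187 and 1174 CPM (0.56 ± 0.17, edgeR adjusted p = 0.0697), and *rpl3801*, a gene of eL38, had 76.7, 86.8 and 149 (0.62 ± 0.30, edgeR adjusted p = 0.195). The clones agreed closely for *rpl3202* and not for *rpl3801*. *rpl3601*, the third in level per length in WT, had 2075, 2953 and 2000 CPM, above WT in slow #1 alone (0.26 ± 0.28, edgeR adjusted p = 0.542). In 12 members the clones differed from each other by over 0.5 on the log2 scale.

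Paralogs were compared in 26 pairs from 22 families with 46 members. Both copies had a negative log2 fold change in 18 pairs, both a positive one in 5, and the copies differed in sign in 3. The log2 ratio of the copies moved the same way in both clones in 21 pairs, and by over 0.5 in both clones in 7. The median size of the change was 0.32 over all 26 pairs. These 7 pairs were *rpl2701* with *rpl2702*, *rpl802* and *rpl801* with *rpl803*, *rpl1901* with *rpl1902*, *rpp101* with *rpp102*, *rpl301* with *rpl302* and *rpl2001* with *rpl2002*. With 1 WT and 2 slow libraries a permutation test cannot reach p under 0.05, and no other test of these ratios was run. Of the 31 families all of whose copies are in the list, the summed CPM was lower in both clones in 22, higher in both in 5 and split in 4, with a median log2 change of −0.30.

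**Figure D3:**
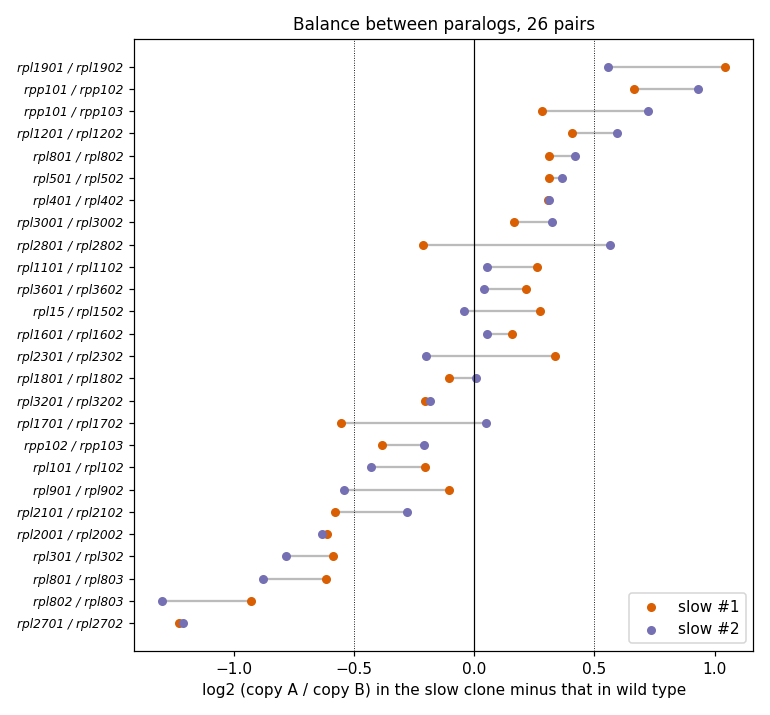
Change of the log2 ratio of the counts of 2 paralogs (copy A over copy B, as named on the vertical axis) from WT to slow #1 (orange) and to slow #2 (purple), for 26 pairs. Dotted lines mark 0.5 either way. In *rpl2701* / *rpl2702* both points lie near −1.2, and in 7 pairs both lie beyond the same dotted line.

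Members with 1 and with more exons had medians below 0 alike. By the number of exon starts in the count table, 32 members had 1 exon and 28 had more. The median log2 fold change was −0.24 for those with 1 exon (−0.28 and −0.34 in the clones) and −0.33 for those with more (−0.31 and −0.32). Among the former 20 of 32 were lower in both clones, among the latter 19 of 28. DESeq2 called 6 members down in each class, and, over all protein-coding genes, 147 of 2529 with 1 exon and 71 of 2484 with more. Over protein-coding genes the medians were −0.06 with 1 exon and −0.01 with more, so that the members were below the rest in each class. The difference between the classes was not tested.

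The 28 members with introns hold 31 in RefSeq, 44 to 441 bases long with a median of 117, and all 31 end in AG. Their first 6 bases were GTAAGT in 18 and GTATGT in 9. The remaining 4 starts occurred once each, among them those of *rpl2701* (GTATGA) and *rpl1602* (GTAAGA) printed above. The 6 members with a single intron under 60 bases had a median of −0.68, and 3 of them, *rpl2701*, *rpl1601* and *rpl1602*, were called down by DESeq2. The other 3 ranged up to 0.34, and the 19 with a single longer intron had a median of −0.34, with 2 called down. The limit of 60 bases was chosen after the values were seen. Over the 25 genes with 1 intron, Spearman's rho of intron length with fold change was −0.03.

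**Figure D4:**
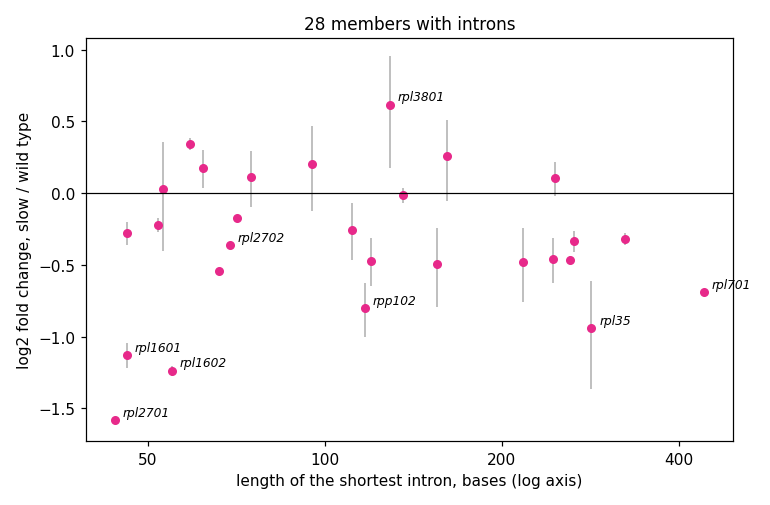
Log2 fold change (slow over WT, points) of the 28 members with introns against the length of their shortest intron (horizontal log axis), with grey lines from one clone's value to the other's. The 3 lowest points are *rpl2701*, *rpl1602* and *rpl1601*, with introns of 44, 55 and 46 bases. The other genes with an intron under 60 bases lie from −0.28 to 0.34.

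Short members lay closer to WT in the median than long ones. Lengths here are those of the deposited table, which starts 55 of the 60 genes upstream of the RefSeq start (*rpp0* by 1091 bases). Classes by RefSeq length were not made. The 15 members with under 600 bases of exon had a median log2 fold change of 0.03, the 21 from 600 to 800 bases −0.18, the 18 from 800 to 1000 −0.46, and the 6 longest −0.38. All 6 of the longest were lower in both clones, against 7 of the 15 shortest. Across the members, which are not independent and share each library, Spearman's rho of length with fold change was −0.27 (n = 60; −0.30 and −0.18 in the clones). It was −0.56 over the 24 other 60S genes, −0.57 over the 55 40S genes and −0.17 over 4874 other protein-coding genes. Within each length class, other protein-coding genes had higher medians (0.29, 0.18, 0.07 and −0.05). The share of structural and mitochondrial features, given above, was higher in both slow libraries, and its part in this was not tested.

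**Figure D5:**
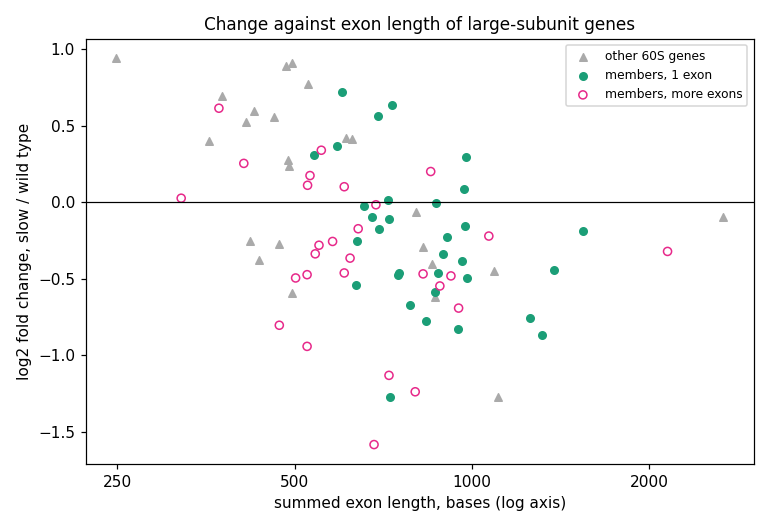
Log2 fold change (slow over WT) against summed exon length (horizontal log axis) of members with 1 exon (green), members with more (open pink) and the 24 other 60S genes (grey triangles). The shortest genes lie mostly above 0 and the members over 1000 bases all lie below it.

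Other genes of the ribosome were listed by name and not by how they moved. Over all genes tested, edgeR called 0.39% down and 0.312% up, and DESeq2 called 3.56% and 4.84% of those it tested. In both clones, 42.6% of all genes were lower and 42.7% higher. Before adjustment, 17.9% were lower and 17.5% higher with edgeR p below 0.05. The 55 genes of the 40S subunit had a median of −0.25, and 2 fell by edgeR, *rps801* (−1.96, adjusted p = 0.00441) and *rps2601* (−1.54, adjusted p = 0.00913). DESeq2 called 10 of them down and 1 up, and 37 were lower and 12 higher in both clones. The 24 other 60S genes had a median of 0.26, and 11 were lower and 13 higher in both clones. Among them 0 were called by edgeR, and 5 up and 1 down by DESeq2. The one down was *rpl702*, a gene of uL30 (−1.27), and those up were *rpl3703*, *rpl4101*, *rpl4102*, *rpl26* and *rpp202* (0.69 to 0.94). These other 60S genes are shorter than the members, with a median of 492 against 724 bases. Under 600 bases, the 15 other 60S genes had a median log2 fold change of 0.52, against 0.03 for the 15 members. From 600 to 800 bases the medians were 0.42 (n = 2) against −0.18, and from 800 to 1000 bases −0.34 (n = 4) against −0.46. For the longest they were −0.44 (n = 3) against −0.38. The part of length in the difference was not tested. The 49 factors of 60S assembly had a median of −0.25, with 0 called by edgeR (with p below 0.05 before adjustment, 5 were higher and 15 lower), and 3 down (*erb1*, *has1*, *rlp24*) and 1 up (*cgr1*) by DESeq2.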

How the data were processed

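Per the labels, reads were trimmed with Trimmomatic 0.36 and mapped to ASM294v2 by STAR 2.5.1. The authors then counted fragments per gene, by strand, with featureCounts (version: not given in the sources used here). As deposited, values are raw counts, not normalized, with the summed exon lengths in another column. The options stated for it include none that would keep multi-mapping reads, which it drops by default, so near-identical copies may lose reads.

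The test was that of edgeR 4.0.16 (R 4.3.3): filterByExpr (minimum count 10, minimum total 15), TMM factors, quasi-likelihood fit, and Benjamini-Hochberg adjustment over all 6418 genes tested. Calls needed an FDR below 0.01 with more than a 1.5-fold difference. The fit had 1 residual and 5.25 prior degrees of freedom, and a common dispersion of 0.0124. A standard error is the absolute log2 fold change over the square root of F. Values per clone subtract the log2 CPM of WT (prior count 2). DESeq2 1.42.0 was an alternative, SciPy 1.17.1 gave rank correlations, and R gave the exact binomial intervals of the paralog shares. The edgeR step was tested on simulated counts.

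Names came from RefSeq (ASM294v3) for 6844 of 7049 identifiers. Gene positions given as ASM294v2 are those of the deposited table. Of 64 symbols of assembly factors, 53 matched, and 4 of these name other proteins and were left out. Members and lists were chosen with earlier results of these data known. Members named with values are those called by either tool, the 4 with the highest and the 4 with the lowest fold change, the 3 highest and 3 lowest per length in WT, families whose copies differed by over 0.5 (log2) in both clones, and *rpp0* with the P1 genes. *rpl401*, *rpl102*, *rpl902*, *rpl1202* and the P2 genes were named after their values were seen.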

Additional observations from a re-analysis of the deposited data

How the results depend on the processing

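The members called down by edgeR numbered 1 as reported, and 12 with DESeq2, 0 with RLE size factors, 21 with scaling to *nda2*, *act1* and *fba1*, 2 with TMM factors from genes other than ribosomal protein genes, 5 with no low-count filter and 10 with an FDR under 0.05; those called up were 0, and 1 with DESeq2 or an FDR under 0.05. Over the whole table the same settings called down 25, 234, 0, 611, 58, 129 and 359 genes, so that the members' counts moved with those of all genes. With RLE factors, 25 members were lower and 4 higher before adjustment (edgeR p below 0.05), against 26 and 4 as reported. As reported, 17.9% and 17.5% of all genes passed that cut, and the shares with RLE factors are not given here. Scaling to the 3 reference genes moved the median of all genes to −0.18, and its calls over all genes were 23.4% up, against 44.4% as reported, 57.6% with DESeq2 and 26.7% without structural and mitochondrial features.

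The median of the members kept its sign in every setting run. It was −0.24 with upper-quartile factors and −0.49 with the reference genes, and without a slow replicate it ranged from −0.34 to −0.30. For members with 1 exon it was −0.18 and −0.43 with these scalings and from −0.34 to −0.28 without a replicate. For members with more exons it was −0.27 and −0.52, −0.33 with DESeq2, RLE factors or TMM without ribosomal protein genes, and −0.32 without structural and mitochondrial features, and from −0.32 to −0.31 without a replicate. HomolD was in 51.7% of member promoters on 1 strand and in 93.3% by its first 7 letters (chosen after the data were seen), and HomolE in 18.3% on 1 strand. The cause of these moves was not tested.

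No test was possible without a slow replicate, which leaves 1 library a group and no residual degrees of freedom. No paired analysis was possible because the WT label carries no replicate number. The single WT library limits every value here.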
